A study of Mus musculus with 72 samples.

Results

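The 614 reporter integrations listed on mouse chromosome 18 were examined, of 17857 integrations in the whole genome (3.44%). They were chosen by their listed chromosome alone, over all 6 pools, and none was left out. The question was how the output of an identical reporter changed along one chromosome: where runs of high and low reporters lay, how long they were, where they ended, and which stretches held no reporter.

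The assay was TRIP, a parallel reporter assay in which each reporter carries its own random barcode and is mapped to its place of integration. Every reporter was driven by the mouse PGK promoter (mPGK) and was carried into EBRTcH3 cells, a mouse embryonic stem cell line whose ROSA26 promoter drives a tetracycline-controlled transactivator, by a piggyBac plasmid library together with a plasmid for the mPB transposase. Cells with low eGFP signal were sorted and grown for 5 days, small pools were isolated and grown for 7 days, and each pool was then divided into 2 cultures that were kept apart for 7 more days as technical replicates. The 6 pools, mPGK-A to mPGK-F, thus shared the cell line, the promoter, the sort and the growth medium, in which cells were kept with leukemia inhibitory factor, PD0325901 (a MEK inhibitor) and CHIR99021 (a GSK-3 inhibitor). They differed in the integrations they held. The pools are cell lines in culture with no treated group, and the labels do not say whether they came from separate transfections. Barcodes were counted in RNA (expression) and in genomic DNA (abundance), and were placed by inverse PCR, which gives 72 libraries in 18 groups of 4.

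A gene's output depends on its surroundings in the chromosome as well as on its promoter. Active chromatin tends to keep a promoter accessible, while heterochromatin and regions at the nuclear lamina tend to hold it down, an influence known as a position effect. The promoter of Pgk1, which encodes phosphoglycerate kinase, a glycolytic enzyme made in nearly all cells, is often used to drive transgenes. The piggyBac transposon inserts at TTAA sites and tends to favour open, gene-rich chromatin, so the places it reaches are themselves unevenly spread.

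Expression is given as the log2 of a barcode's share of the RNA reads over its share of the DNA reads in its pool, averaged over the 2 cultures, with the median of the pool set to 0. A value of -1 is therefore 2-fold below the median reporter of the pool. Dividing by DNA allows for how many cells carry a barcode, but fewer expressing cells and less RNA per cell cannot be told apart. Positions are those listed on mm9. Totals over the listed barcodes ranged from 2880244 to 3508366 RNA reads and from 3386477 to 3693449 DNA reads per pool and culture. The median chromosome 18 reporter had 459.5 RNA and 1670 DNA reads over both cultures, against 556 RNA and 1671 DNA reads on the other chromosomes. The error of a single culture was 0.80 log2 units (SD) on chromosome 18 and 0.78 elsewhere. It was 0.42 for the 402 chromosome 18 reporters with at least 100 RNA reads in each culture and 1.23 for the others, so values of weakly expressed reporters are the less certain ones. The 2 cultures placed 544 of the 614 reporters (88.6%) on the same side of the pool median.

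The integrations spanned positions 3846908 to 90679261, or 86.8 Mb, at a density of 7.07 per Mb. The other 18 autosomes held 6.04 to 9.0 per Mb, with a median of 7.41. Each pool contributed between 92 integrations (mPGK-A) and 116 (mPGK-E). Of all chromosome 18 integrations, 301 lay on the plus strand and 313 on the minus strand. Of their barcodes, 36 were also listed in another pool.

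Chromosome 18 reporters were weaker on average than those elsewhere, and strong ones made up a smaller share. Their mean was -0.52 and their median -0.43, against -0.17 and 0.02 on the other chromosomes. The mean was not the lowest of the autosomes, since that of chromosome 14 was -0.55. Below the median of their pool lay 365 of 614 (59.4%), against 49.7% of the reporters elsewhere. Only 7 reporters (1.14%) were more than 16-fold above the median, against 2.52% elsewhere, and 14.2% were more than 4-fold above it, against 17.6% elsewhere. At the other end, 39 reporters (6.35%) were more than 16-fold below the median, against 6.48% elsewhere. The strongest reporter reached 5.00, while the strongest of each of the other 18 autosomes lay between 4.56 and 7.31. Between the 5th and the 95th percentile, expression spanned 184-fold on chromosome 18 and 230-fold elsewhere.

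The same direction was seen in every pool. The mean on chromosome 18 was -0.35 in mPGK-A, -0.49 in mPGK-B, -0.35 in mPGK-C, -0.72 in mPGK-D, -0.58 in mPGK-E and -0.59 in mPGK-F. On the other chromosomes it was -0.14, -0.15, -0.22, -0.19, -0.17 and -0.17 in the same pools, so that the 2 sets of 6 means did not overlap. The difference was -0.34 ± 0.14 (SD, n = 6 pools), or 1.26-fold lower, and ranged between pools from -0.52 in mPGK-D to -0.13 in mPGK-C. An exact two-sided sign-flip permutation test over the 6 pools gave p = 0.031, the smallest that 6 pools allow, and 0.0625 after Benjamini-Hochberg adjustment over a family of 4 tests, which does not pass 0.05.

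**Figure D1:**
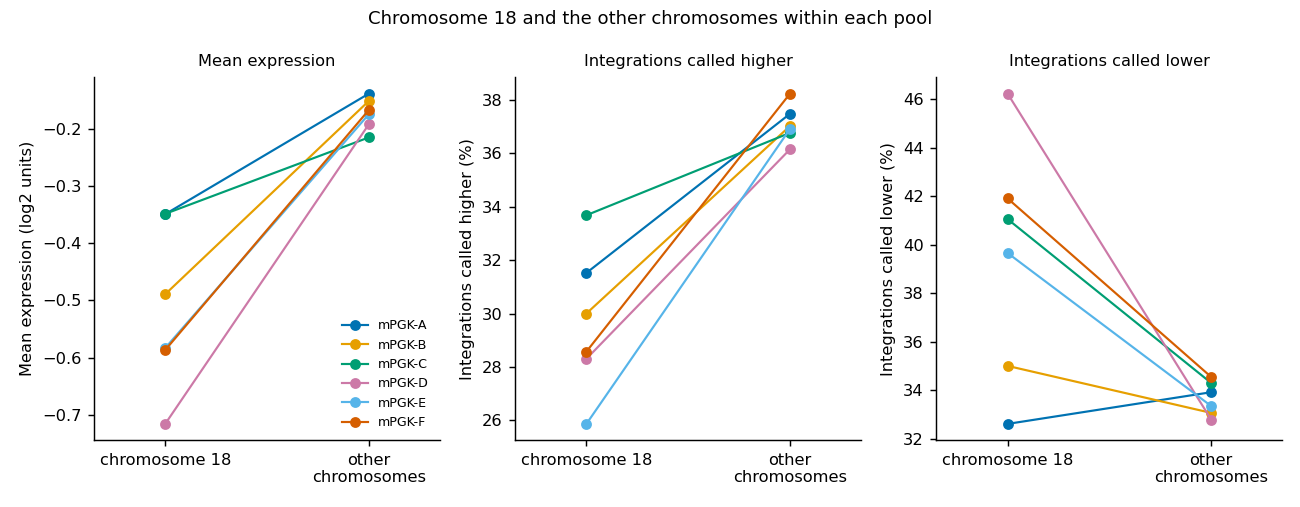
Each line joins chromosome 18 (left) and the other chromosomes (right) of one pool. The panels show the mean expression in log2 units, the percentage of integrations called higher than the pool median and the percentage called lower. The mean and the share called higher were below those of the other chromosomes in 6 of 6 pools, and the share called lower was above in 5 of 6, the exception being mPGK-A. The vertical axes do not start at 0.

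The RNA counts of every barcode were also tested directly against its DNA counts, with edgeR's quasi-likelihood test in each pool and adjustment over all 17857 integrations. The p-values of this test measure the spread between 2 cultures of one pool. On chromosome 18, 181 reporters were called higher than their pool median (29.5%, where 36.8% of all reporters were), 243 were called lower (39.6%, where 33.8% of all reporters were), and 190 were not called. No other autosome had so low a share called higher (30.7 to 48.2% over the other 18) or so high a share called lower (26.4 to 38.5%). On chromosome X, 30.5% were called higher and 40.5% lower. On chromosome Y, with 9 reporters, the shares were 0 and 66.7%. Within pools, the share called higher averaged 29.7% ± 2.7 on chromosome 18 and 37.1% ± 0.71 elsewhere (SD, n = 6 pools), a difference of -7.44 percentage points that was negative in 6 of 6 pools (exact sign-flip permutation test, p = 0.031, adjusted p = 0.0625). The share called lower averaged 39.4% ± 4.9 on chromosome 18 and 33.7% ± 0.70 elsewhere, a difference of 5.75 points that was positive in 5 of 6 pools (exact sign-flip permutation test, p = 0.0625, adjusted p = 0.083). It ranged from -1.31 points in mPGK-A to 13.4 points in mPGK-D. When counts were scaled by TMM alone, without setting the pool median to 0, the 2 differences were -6.24 and 7.10 points and both passed (adjusted p = 0.042 in the exact sign-flip permutation tests). For the share called higher, the difference was smaller and the unadjusted p unchanged at 0.031 in this test. Its adjusted p fell only because the share called lower also reached the smallest p that 6 pools allow. No difference by strand was detectable: the plus-strand mean was -0.53 and the minus-strand mean -0.50, a difference of -0.03 ± 0.08 (SD, n = 6 pools, exact sign-flip permutation p = 0.53).

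**Figure D2:**
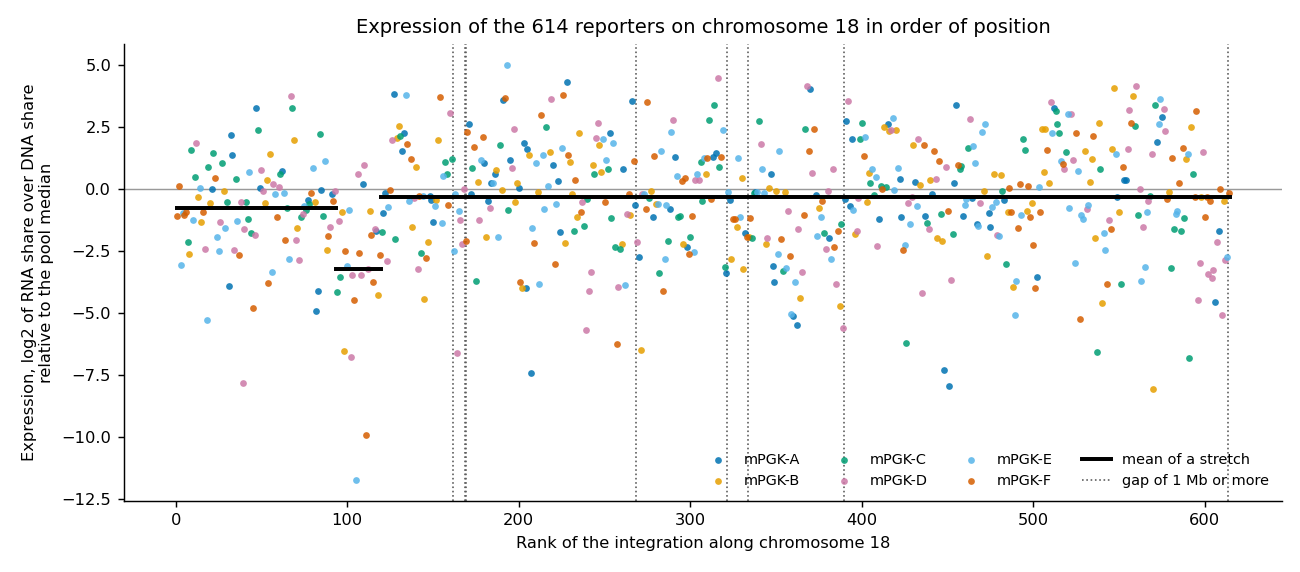
Expression of the 614 reporters (vertical axis, log2 units relative to the pool median) by their rank along chromosome 18 (horizontal axis), coloured by pool. Black lines are the means of the 3 stretches found by partitioning, -0.76, -3.21 and -0.33, and dotted lines mark the 8 gaps of 1 Mb or more. Reporters of all 6 pools fall in the low stretch near rank 100, where 23 of 26 lie below 0, and values on both sides of 0 occur in all 3 stretches.

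The outline of the chromosome was uneven. With the listed span divided into 10 equal parts, the mean was highest in part 9 (0.21 over 73 reporters, positions 73731506 to 81890012) and in part 4 (0.14 over 80 reporters, 30668068 to 38545265). It was lowest in part 6 (-1.30 over 43 reporters, 47525689 to 55922088) and in part 2 (-1.24 over 74 reporters, 12541450 to 21206150). Parts 2 and 6 were below 0 in each of the 6 pools: the pool means ran from -2.36 to -0.39 in part 2 and from -2.14 to -0.35 in part 6. Part 7 (56128133 to 64574224) averaged near the pool medians in all 6 pools, with means between -0.51 and 0.07. It was not flat, as it held both low and high runs of reporters. Among them were a low run from 58188232 to 60710333 (mean -2.86) and a high run from 62867219 to 62995443 (mean 2.12).

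Partitioning the ordered values into stretches of constant mean gave 3 stretches, fewer than on most autosomes, which had 1 to 14 with a median of 9. The first stretch ran from 3846908 to 15266334 (11.4 Mb, 93 reporters) with a mean of -0.76. The second ran from 15713077 to 19463316 (3.75 Mb, 26 reporters) with a mean of -3.21, or 9.27-fold below the pool median. The last held everything from 19623157 to 90679261 (71.1 Mb, 495 reporters) with a mean of -0.33. The longest stretch of each other autosome covered between 20.7 and 117 Mb. Because the stretches were cut from the values themselves, their levels are given as a description and were not tested.

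The 3.75 Mb low stretch was the most pronounced feature of the chromosome. It held reporters of all 6 pools: 2 of mPGK-A, 4 of mPGK-B, 2 of mPGK-C, 8 of mPGK-D, 3 of mPGK-E and 7 of mPGK-F. Of the 26, 23 lay below the median of their pool, 20 were called lower, 1 was called higher and 5 were not called, and 7 were more than 16-fold below the median. The pool means were -0.75 in mPGK-A, -3.16 in mPGK-B, -3.85 in mPGK-C, -2.28 in mPGK-D, -5.23 in mPGK-E and -3.97 in mPGK-F. All were below 0, and mPGK-A, with only 2 reporters there, was the least so. The 2 cultures gave means of -3.31 and -3.15 for the stretch. Its median reporter had 73 RNA reads over both cultures, while the medians of the stretches to its left and right were 416 and 510. The median DNA counts were 2163 in the low stretch and 1763 and 1631 to its left and right, so the low values did not come with fewer DNA reads.

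The low stretch was not uniform. Its lowest reporter, at 16616147 in mPGK-E, had 0 RNA reads in both cultures over 4814 and 5032 DNA reads, which at a floor of 3 RNA reads over both cultures puts it at least 1122-fold below the pool median. Another, at 17110628 in mPGK-F, had 0 RNA reads over 1370 and 1161 DNA reads, at least 321-fold below. Between them, from 16634422 to 16928006, lay the 3 reporters that were above the median: 0.58 in mPGK-D, 0.20 in mPGK-A and 0.95 in mPGK-D, the last being the one called higher (496 and 502 RNA reads). The closest of these stood 18.3 kb from the lowest reporter of the whole chromosome.

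**Figure D3:**
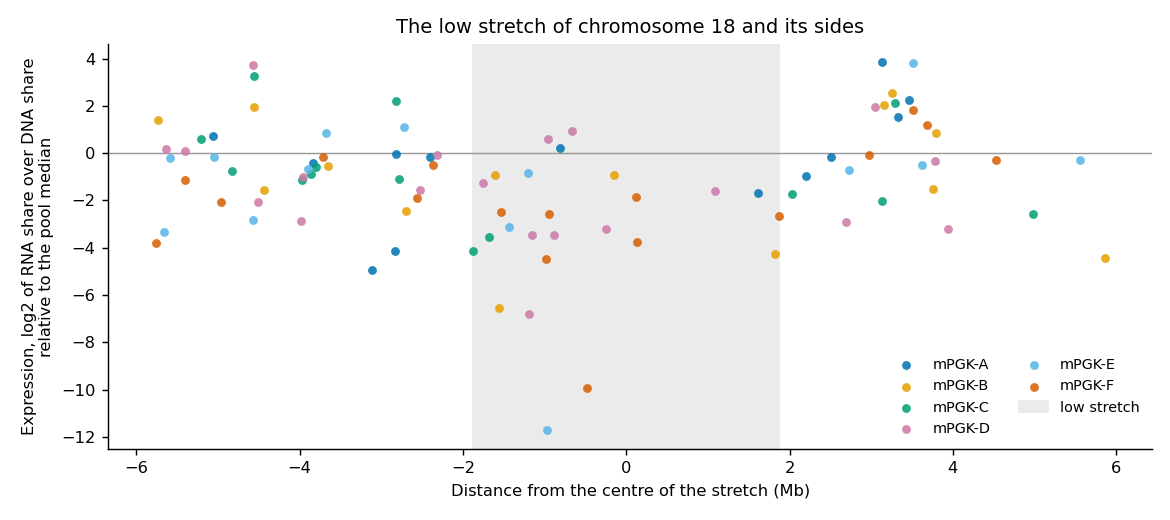
Expression (vertical axis, log2 units relative to the pool median) of reporters within 6 Mb of the centre of the low stretch (horizontal axis, distance in Mb), coloured by pool, with the stretch from 15713077 to 19463316 shaded. Of the 26 reporters inside, 23 lie below 0, and a cluster of high reporters from 5 pools stands about 3 Mb to the right of the centre.

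By single reporters, the sides of the low stretch differed in sharpness close to its edges. Steps between neighbouring 2 Mb windows, described further below, did not show a sharper left side. They were -2.06 ± 0.91 (SE) at 16000000, with mPGK-A going the other way, and 2.94 ± 1.01 (SE) at 20000000, positive in 5 of 5 pools. Neither passed (limma adjusted p = 0.18 and 0.073). On the left, the last 3 reporters outside it were -0.19 in mPGK-A, -0.50 in mPGK-F and -0.07 in mPGK-D, none of them called. After a gap of 447 kb the first reporter inside, in mPGK-C at 15713077, stood at -4.13. Further out on the left, the reporters at 15028644 in mPGK-F (-1.90) and 15056039 in mPGK-D (-1.55) were both called lower. On the right, the last 3 reporters inside were -1.69 in mPGK-A, -4.28 in mPGK-B and -2.66 in mPGK-F. The first outside, 160 kb further, was still called lower at -1.73 in mPGK-C, and 4 of the first 5 outside were called lower. In the settings other than those without mPGK-F and with ranks, the left edge moved only without mPGK-C, to 16024556, and the right edge lay between 19463316 and 20284484. Without mPGK-F, which supplied 7 of its reporters, the low stretch was not recovered as such: it shrank to 6 reporters from 16024556 to 16616147 (mean -5.41), and a distal low stretch appeared from 85125022 to 89487025 (14 reporters, mean -2.58), which makes 4 stretches. With ranks in place of values it was not separated from the start of the chromosome, and 6 stretches were found. The second culture left out gave 6 stretches, and a smaller penalty for new stretches gave 14 in place of 3, with a low one from 15713077 to 19623157.

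Runs of neighbours on one side of the pool median were more frequent on the low side. Runs of at least 5 numbered 33, of which 10 lay above and 23 below the median. They held 12.2% of the chromosome's reporters in runs above and 32.1% in runs below, against 21.4% in each on the other chromosomes. Below the pool median lay 59.4% of chromosome 18 reporters, against 49.7% elsewhere. A larger share below the median by itself makes low runs more frequent and high runs rarer. How much of the difference in runs goes with it was not tested. No other autosome had so large a share in runs below the median. High and low runs alike had a median of 7 reporters, but low runs were wider: their median length was 1.73 Mb and their median spacing between reporters 233 kb, against 313 kb and 57.6 kb for the high runs. Together the low runs covered 39.8 Mb and the high runs 3.75 Mb. In the single cultures, 185 and 186 of the 197 reporters in low runs, and 74 and 73 of the 75 in high runs, stayed on the side of their run. Runs were cut from the mean of these same 2 cultures, so this agreement is partly built in and is a description only.

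Of the 12 runs with at least 8 reporters, 2 lay above the median. The longer of these ran from 75163851 to 76223239 (1.06 Mb) and held 16 reporters from all 6 pools. Its mean was 1.98 ± 1.02 (SD), or 3.95-fold above the median, and 13 of the 16 were called higher. Pool means in it ran from 1.29 in mPGK-F (2 reporters) to 3.25 in mPGK-A (1 reporter). The other high run, from 80948163 to 81395609 (447 kb), held 9 reporters from 5 pools with a mean of 2.16 ± 1.43 (SD), and 7 of them were called higher. Both high runs were dense, with a reporter every 70.6 and 55.9 kb on average.

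The 10 low runs of this size were grouped in parts of the chromosome. They lay between 13077749 and 29554463, between 47593775 and 57787413, and at the distal end from 85672555. None lay between 29554463 and 47593775 or between 57787413 and 85672555. The longest by count, 18 reporters of all 6 pools from 14888736 to 16616147 (mean -3.11 ± 2.92 SD, 13 called lower), crossed the left edge of the low stretch. The next, 15 reporters of all 6 pools from 17110628 to 20565374 (mean -2.43 ± 2.42), covered its right part and ran past its right edge. A run of 14 reporters of all 6 pools lay from 54881401 to 56626442 (mean -3.00 ± 1.69), where 13 of 14 were called lower, each pool having at least 1. It was followed, 153 kb on, by 6 high reporters of 4 pools within 86.8 kb (56779921 to 56866744, mean 2.53), and 16.1 kb beyond these began a further low run of 10 (56882828 to 57787413, 6 pools, mean -1.36 ± 0.96). Runs of 12 reporters from 21524559 to 24085414 (6 pools, mean -1.58 ± 1.41) and of 10 reporters from 13077749 to 13871132 (6 pools, mean -1.14 ± 0.82) lay to the right and left of the low stretch. A further 3 runs were sparser and crossed long gaps: 8 reporters from 26105378 to 29554463 (3 pools, mean -1.97 ± 2.09), 8 from 47593775 to 50024686 (5 pools, mean -1.74 ± 1.24) and 9 from 50288376 to 53384122 (5 pools, mean -1.38 ± 1.07).

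The last 15 reporters of the chromosome formed the widest low run, 5.01 Mb from 85672555 to 90679261, with a mean of -2.13 ± 1.66 (SD) and 9 called lower. The pools behind it were not alike. The 6 reporters of mPGK-D lay between -5.07 and -2.14, and all 6 were called lower. The 5 of mPGK-F lay between -1.11 and -0.02, and none was called. The other 4 were -4.54 and -1.70 in mPGK-A, -2.75 in mPGK-E and -0.47 in mPGK-B, and mPGK-C had none there.

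Fixed windows of 2 Mb were used to judge levels against the spread between pools, with limma over all windows of the genome that held at least 5 integrations from at least 3 pools. Levels are relative to the mean of the pool. Of the 45 windows on chromosome 18 with an integration, 40 were tested and the other 5, with 13 integrations, were too thinly filled. None was called higher, where 8.05% of all tested windows were, and 5 were called lower (12.5%, where 9.76% of all were). Without adjustment, 1 window was higher and 10 were lower at p under 0.05. The 5 low windows held 49 reporters, of which 40 were called lower and 1 higher, where 39.6% of all chromosome 18 reporters were called lower. These calls, and those given for single windows below, rest on the same counts as the window levels and are a description. The low windows were thin, with a median of 7 reporters against 17 in the other windows. With a pool left out, 2 were called lower without mPGK-D or mPGK-F and 3 without mPGK-A or mPGK-E. Fewer windows then held at least 5 integrations from at least 3 pools.

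The lowest window, 16000001 to 18000000, lies within the low stretch. Its values were 0.34 in mPGK-A (1 reporter), -3.55 in mPGK-B, -2.35 in mPGK-D, -5.04 in mPGK-E and -4.0 in mPGK-F, and mPGK-C had none there. The mean was -3.33 ± 0.52 (SE), or 10.1-fold below the mean reporter (limma, adjusted p = 0.00012). It passed in each of the 10 settings in which it could be fitted. The window 58000001 to 60000000 was lower in all 4 pools that reached it, at -4.56 in mPGK-B, -1.18 in mPGK-C, -4.51 in mPGK-D and -1.84 in mPGK-F. Its mean was -3.07 ± 0.85 (SE, adjusted p = 0.013 by limma), and all 6 of its reporters were called lower.

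The window 54000001 to 56000000 had values of -4.28, 0.07, -3.08, -0.69, -2.42 and -2.18 in mPGK-A to mPGK-F. Its mean was -2.21 ± 0.58 (SE, adjusted p = 0.0084 by limma), and it did not pass without mPGK-E (adjusted p = 0.078). The window 86000001 to 88000000, in the last low run, stood at -2.97 in mPGK-A, -3.30 in mPGK-D and 0.17 in mPGK-F. Its mean of -2.71 ± 0.80 (SE, adjusted p = 0.019 by limma) rested on mPGK-D with 4 of 7 reporters, and it did not pass when pools were weighted alike (adjusted p = 0.15). It could not be fitted with any of its 3 pools left out. The window 78000001 to 80000000 was at -4.45 in mPGK-B, -1.05 in mPGK-D, -1.91 in mPGK-E and -3.64 in mPGK-F. With a mean of -2.59 ± 0.92 (SE, adjusted p = 0.049 by limma), it was at the threshold, and it missed it with either culture left out (0.054 and 0.11) and without mPGK-A (0.054), which had no reporter there. It could not be fitted without any of the 4 pools that reached it. The fifth lowest by level, 72000001 to 74000000, had a mean of -2.35 ± 0.86 (SE) from 3 pools and did not pass (adjusted p = 0.058 by limma), except without the first culture (0.034).

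**Figure D4:**
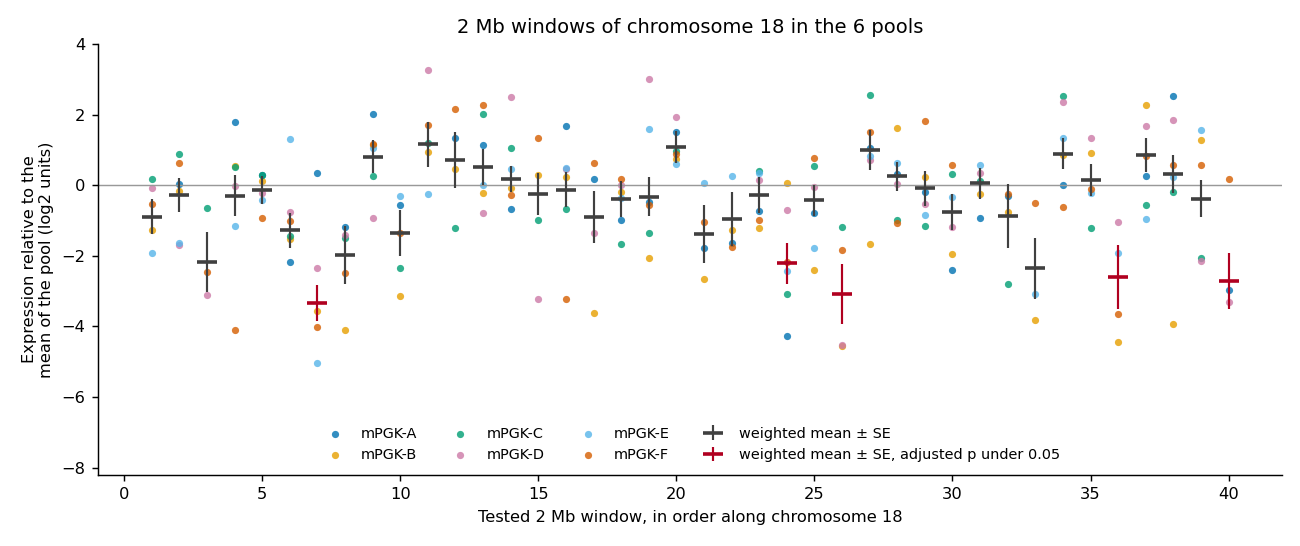
The 40 tested 2 Mb windows of chromosome 18 in order (horizontal axis) with the value of each pool (points) and the weighted mean ± SE (bars), in log2 units relative to the mean of the pool. The 5 windows called lower, in red, have means between -3.33 and -2.21. No window was called higher, and the highest mean was 1.17.

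The highest windows were moderate. The window 46000001 to 48000000 was above 0 in 6 of 6 pools, between 0.61 in mPGK-E and 1.94 in mPGK-D, with a mean of 1.08 ± 0.44 (SE) and 12 of 19 reporters called higher. It did not pass (adjusted p = 0.089 by limma). The other 4 of the 5 highest began at 24000001 (mean 1.17 ± 0.64 SE, limma adjusted p = 0.21), 60000001 (mean 1.00 ± 0.56 SE, adjusted p = 0.22), 74000001 (mean 0.89 ± 0.44 SE, adjusted p = 0.17) and 80000001 (mean 0.86 ± 0.47 SE, adjusted p = 0.22). In each of these 4 windows some pool lay below 0. That from 74000001, which holds part of the longest high run, passed without mPGK-F (limma adjusted p = 0.046), whose 7 reporters there averaged -0.62. Of the 40 windows, 27 lay below and 13 above the mean of the pools.

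Edges were tested as the change from a window to the next within the pools that held reporters in both. Of 36 such pairs on chromosome 18, 1 was called (2.78%, where 4.94% of all neighbouring pairs were), and 10 had an unadjusted p under 0.05. It lay at 60000000, where the level to the right was higher by 2.90 in mPGK-B, 3.74 in mPGK-C, 5.22 in mPGK-D and 3.33 in mPGK-F. The mean step was 4.10 ± 1.19 log2 units (SE, n = 4 pools, adjusted p = 0.038 by limma), or 17.1-fold. It coincided with the second largest gap of the chromosome, since no reporter lay between 59389855 and 60710333. The step was of like size, 3.31 to 4.33, in the other settings, but missed the threshold with pools weighted alike (limma adjusted p = 0.063), without the first culture (0.057), without mPGK-B (0.086) and without mPGK-C (0.077), and it could not be fitted without mPGK-D or mPGK-F. The steps at 22000000 (-2.69 ± 0.84 SE, negative in 5 of 5 pools, adjusted p = 0.051), 20000000 (2.94 ± 1.01 SE, positive in 5 of 5, adjusted p = 0.073), 80000000 (3.54 ± 1.18 SE, positive in 4 of 4, adjusted p = 0.069) and 58000000 (-3.08 ± 1.02 SE, negative in 4 of 4, adjusted p = 0.069) did not pass in limma and were chosen for naming after their values were seen. Between the first 2 of these lay the high run of 7 reporters from 5 pools at 20749094 to 21105099 (mean 2.30, all 7 called higher), 1.29 Mb to the right of the low stretch.

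Gaps without integrations were within the range of the other autosomes in number and length. On chromosome 18, 8 gaps of at least 1 Mb were found, or 9.21 per 100 Mb, against 4.23 to 12.3 on the other autosomes, and they made up 11.1% of the listed span, against 5.68 to 27.9%. The largest gaps of the other autosomes measured 1.59 to 8.03 Mb. On chromosome 18 the largest, 1.64 Mb from 27912900 to 29554463, lay between reporters of mPGK-D (-0.01) and mPGK-F (-2.12). The next, 1.32 Mb from 59389855 to 60710333, lay between mPGK-D (-5.61, called lower) and mPGK-A (-0.40). At the distal end, 1.19 Mb from 89487025 to 90679261 separated mPGK-E (-2.75, called lower) from the last reporter, in mPGK-F (-0.18). A gap of 1.15 Mb from 51096802 to 52249773 had a called-lower reporter at each side, -1.93 in mPGK-F and -1.93 in mPGK-B. The fifth, 1.11 Mb from 29554463 to 30668068, followed the largest directly, so that a single reporter, in mPGK-F at -2.12, stood alone between 27912900 and 30668068. On its right was a reporter called higher, at 2.28, also in mPGK-F.

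Reporters beside gaps were low. The 62 reporters next to one of the 35 gaps of at least 500 kb had a mean of -1.57 ± 1.84 (SD), against -0.40 ± 2.36 for the other 552 on the chromosome. Of the 62, 52 (83.9%) lay below the median of their pool and 4 were called higher, against 56.7% below and 177 called higher among the others. The difference had the same sign in 6 of 6 pools, from -2.25 in mPGK-D to -0.54 in mPGK-F. It was not tested, since gaps and crowding describe the same spacing.

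Crowding and expression moved together here as elsewhere. Reporters with no other integration within 100 kb made up 20.0% of chromosome 18, with a mean of -1.65 ± 0.20 (SE over 123 reporters), and 18.1% of the other chromosomes, with a mean of -1.36 ± 0.04. With 1 to 2 neighbours the means were -0.45 ± 0.13 on chromosome 18 and -0.46 ± 0.03 elsewhere, and with 7 or more they were 1.37 ± 0.44 and 1.40 ± 0.07. With 3 to 6 neighbours they were -0.08 ± 0.18 (204 reporters) on chromosome 18 and 0.52 ± 0.03 elsewhere. Within pools, chromosome 18 minus the rest averaged -0.32 ± 0.48 (SD, n = 6) with no neighbour (negative in 5 of 6 pools), 0.04 ± 0.29 with 1 to 2 (negative in 2 of 6), -0.59 ± 0.41 with 3 to 6 (negative in 6 of 6) and 0.22 ± 0.95 with 7 or more (negative in 3 of 6). Chromosome 18 also had fewer reporters with 7 or more neighbours, 16 of 614 (2.61%), against 5.09% elsewhere. These are descriptions, SE over reporters do not measure the spread between pools, and the classes were not tested against each other.

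**Figure D5:**
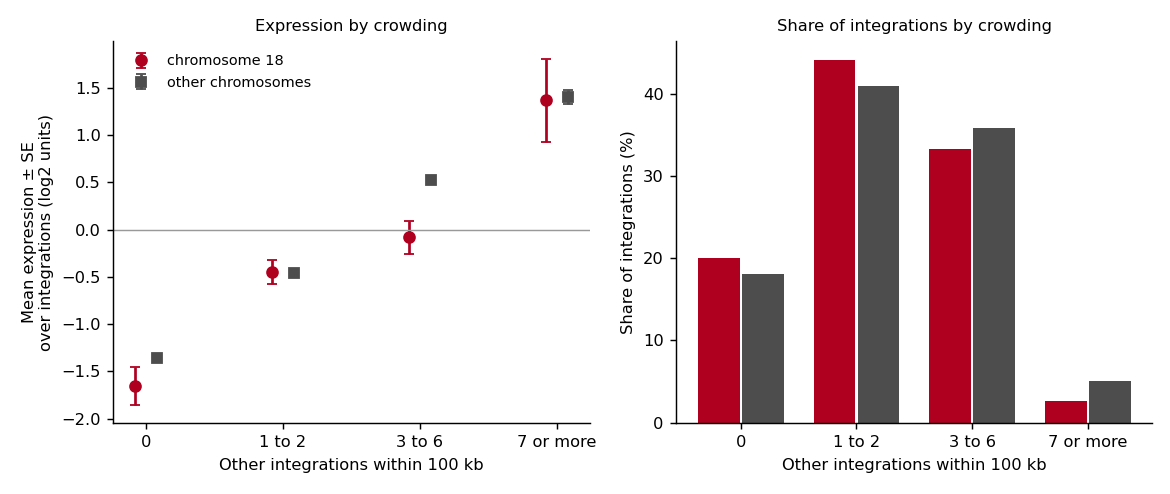
Left, mean expression ± SE over integrations (log2 units relative to the pool median) by the number of other integrations within 100 kb, for chromosome 18 and the other chromosomes. Right, the percentage of integrations in each class. Means climb with crowding in both sets. Chromosome 18 is below the rest with no neighbour (-1.65 against -1.36) and with 3 to 6 neighbours (-0.08 against 0.52), and close to it in the other classes.

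The cluster named as densest held 7 reporters from 5 pools within 94.0 kb (35723286 to 35817270). Their values were 2.97 in mPGK-F, 1.37, -0.82 and 0.12 in mPGK-E, 2.51 in mPGK-C, 1.5 in mPGK-B and 3.60 in mPGK-D. Of the 7, 5 were called higher and none lower, and the mean was 1.61 ± 1.57 (SD). The one reporter of this cluster below 0 stood between higher ones, 14.1 kb from its left neighbour of the same pool. The cluster was not the only one of its size: 7 reporters also lay in a narrower, overlapping stretch from 35759465 to 35842073. That stretch also held 0.95 in mPGK-A (called higher), -3.00 in mPGK-F (called lower) and -0.60 in mPGK-E (not called).

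The likeness of neighbouring reporters was highest at short distances and near 0 beyond 500 kb. Over pairs of chromosome 18 reporters the correlation of expression was 0.43 within 5 kb (57 pairs), 0.37 at 5 to 20 kb (108 pairs), 0.34 at 20 to 50 kb (211 pairs), 0.19 at 50 to 100 kb (274 pairs), 0.20 at 100 to 200 kb (555 pairs) and 0.14 at 200 to 500 kb (1550 pairs). It was 0.02 at 500 kb to 1 Mb (2357 pairs) and -0.01 at 1 to 5 Mb (17096 pairs), against 0.09 and 0.05 on the other chromosomes. For pairs from different pools within 5 kb it was also 0.43 (48 pairs). Pairs share reporters and pools, so these values are given as a description.

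Some close neighbours differed widely. At 47080627 and 47080628, adjacent listed positions on opposite strands, a reporter of mPGK-D stood at 4.46 and one of mPGK-C at 0.87, a 12.1-fold difference. The barcode of the mPGK-D reporter was also listed in another pool. Both reporters were above the median. The cultures differed by less than the reporters did: 4.17 and 4.67 in mPGK-D, 0.69 and 1.02 in mPGK-C. Another 2 such pairs, each within 1 pool, differed by 1.97-fold (53469877 and 53469878 in mPGK-E) and 1.73-fold (85672555 and 85672556 in mPGK-F). Of the 57 pairs within 5 kb, 2 differed by more than 16-fold (3.51%, against 9.52% elsewhere).

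The closest pair of different pools that differed so much was 415 bp apart. At 20717881, mPGK-A stood at 3.84, with 5.06 and 2.58 in its cultures, and at 20718296, mPGK-C stood at -2.03, with -2.48 and -1.60. The mPGK-A reporter had 64 and 458 DNA reads, so its level in the first culture rests on few of them. The next pair, 2769 bp apart, had mPGK-E at -2.81 (13011005) and mPGK-D at 3.73 (13013774), a 93.1-fold difference with calls in opposite directions. The last pair, 5502 bp apart in the low stretch, had mPGK-F at -4.47 (16610645) and mPGK-E, with no RNA read, at 16616147, and both were called lower.

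The strongest reporters came from 4 pools and were scattered. Among the 587 with at least 100 DNA reads in each culture, the highest stood at 34005123 in mPGK-E, with 1586 and 1652 RNA reads over 153 and 142 DNA reads (5.00, 32.0-fold above the median, edgeR adjusted p = 1.05e-07). It was followed by 47080627 in mPGK-D (4.46), 36414737 in mPGK-A (4.30), 56830004 in mPGK-D (4.16) and 80380840 in mPGK-B (4.07), all called higher. The barcode at 47080627 was also listed in another pool. The reporter at 56830004 had 16478 and 16746 RNA reads and lay inside the group of 6 high reporters between 2 low runs. The other 4 had 2 or 3 neighbours within 100 kb. Those at 47080627 and 80380840 lay in windows that were among the 5 highest.

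Several of the weakest reporters had no RNA read. On chromosome 18, 7 of 614 (1.14%) had 0 RNA reads in both cultures, and 184 of all 17857 (1.03%) did. Besides the 2 in the low stretch, these included those at 82723371 in mPGK-B (0 RNA reads over 479 and 267 DNA reads, at least 92.0-fold below the median) and at 9281677 in mPGK-D (0 over 326 and 413, at least 76.4-fold below). The reporter at 66620179 in mPGK-A, the fourth lowest by value, had 6 and 0 RNA reads over 1389 and 1232 DNA reads. The remaining 3 without RNA reads were at 59389855 in mPGK-D, 63948019 in mPGK-C and 66288904 in mPGK-A, at least 18.4-fold, 24.3-fold and 54.0-fold below. All bounds cover counting error only. The 7 came from all 6 pools, and 82723371 lay 221 kb from the start of a group of 7 reporters that were all called higher (82944419 to 83062298, 4 pools, mean 2.85).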

How the data were processed

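RNA and DNA barcodes and mapping reads were sequenced in 72 libraries, and the authors deposited one table of 17857 integrations with pool, position, strand and raw read counts per culture. Bowtie2 2.0 and mm9 were used, per the submitters' processing notes. The merging of PCRs, the filters on barcodes and the base from which positions count are not given in the sources used here, and listed positions may be shifted by a base. Read totals were summed over the table and do not give the depth of whole libraries. Mapping reads were used only as positions. The labels give no sequencing batch. Positions were not annotated with genes, because no annotation of mm9 was used here.

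Expression used a pseudocount of 0.5 RNA reads. RNA against DNA counts were tested with edgeR 4.0.16 in R 4.3.3 (filterByExpr removed 0 barcodes; TMM, then a shift to the pool median, which moved medians of -0.27 to -0.23 log2 units to 0), with DESeq2 1.42.0 as an alternative. Windows and edges were fitted over the genome with limma 3.58.1, with weights by the number of integrations. Pools were compared by exact sign flips of 64 patterns. Adjustment was Benjamini-Hochberg with a threshold of 0.05. The partition minimised squares with at least 5 integrations per stretch and a penalty of 3 times the log of their number times the noise variance. Other values used Python 3.11.15, numpy 2.4.6 and pandas 2.3.3, and the fits were tested on simulated data. Labels pair RNA and DNA by culture, and their deviations correlated at -0.002 to 0.057 over barcodes within pools.

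Named were the 5 highest and 5 lowest integrations with at least 100 DNA reads in each culture. The 5 largest gaps, runs of at least 8, all stretches, the 5 highest and lowest windows and those called, and called edges were named. So were a 100 kb cluster tied as densest and the 3 closest pairs of different pools over 16-fold apart. Others were chosen after their values were seen. Members and rules were chosen with earlier results of these data known.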

Additional observations from a re-analysis of the deposited data

How the results depend on the processing

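The lower mean and the smaller share called higher on chromosome 18 kept their direction in all settings tried (-0.45 to -0.30 log2 units and -8.31 to -6.15 percentage points), and the larger share called lower did too (4.4 to 7.17 points). With TMM scaling alone the shares differed by -6.24 and 7.10 points and passed after adjustment, that called higher with an unchanged unadjusted p. With the replicate block, which pairs RNA and DNA of a culture, the differences were -7.55 and 5.22 points, 178 reporters were called higher and 235 lower, and no call of a named reporter changed. The strand difference turned positive with a pseudocount of 5 RNA reads (0.0042), with medians (0.060), without the lowest 10% of DNA counts (0.025) and without barcodes of several pools (0.029), and ranged from -0.048 to 0.00013 with a pool or culture left out. Higher windows numbered 1 with windows shifted by 1 Mb and with 1 Mb windows, and 0 to 1 with a pool or culture left out. Lower windows numbered 3 with 1 Mb and 3 with 5 Mb windows, 7 with a pseudocount of 5 reads, and 2 to 5 with a pool or culture left out (2 without mPGK-D or mPGK-F, 3 without mPGK-A or mPGK-E). With a pool left out, this was in part because fewer windows then held at least 5 integrations from at least 3 pools. Called edges numbered 0 with shifted windows, 2 with 1 Mb windows, 4 with 5 Mb windows, 0 without weights, 4 with a pseudocount of 5 reads, and 0 to 2 with a pool or culture left out (0 without the first culture, mPGK-B, mPGK-C, mPGK-D or mPGK-F, and 2 without the second culture). Stretches numbered 14 with a penalty factor of 2, 6 with ranks, and 3 to 6 with a pool or culture left out (6 without the second culture). Gaps numbered 35 from 500 kb. The cause of these changes was not tested otherwise. Pools are few: 6 allow no exact p below 0.031, and thin windows rest on single reporters. Integrations with few RNA reads take their value from the pseudocount. No pool stood apart among 15 groups of 4 to 6 pools examined. Windows with 3 pools, among them that from 86000001, were too small to be examined in this way.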
